A study of Homo sapiens with 8 samples.

Results

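The regions described here are places far from promoters where both T47D libraries had a HIF-1β peak and none of 3 other cancer cell lines had a site repeated in both of its libraries. A site of a line was a merged region with overlapping peaks (1 bp or more) of both its replicates, the sites of the 4 lines were merged into 3837 regions on the main chromosomes of GRCh37 (hg19), and regions that held a site of T47D alone and lay over 2 kb from every transcription start site (TSS) of a protein-coding transcript were kept. The regions were thus chosen by the presence or absence of HIF-1β peaks and by distance. This gave 580 distal T47D-only regions, 15.1% of all regions and 49.5% of the 1171 regions with a site of T47D alone. The other 591 T47D-only regions lay within 2 kb of such a TSS. The study immunoprecipitated HIF-1β from 4 established human lines, all kept at 0.5% oxygen for 16 h, with 2 replicates each: T47D, an oestrogen receptor positive line of luminal breast cancer, and 3 lines of other organs, A549 (lung), HCT-116 (colon) and PC3 (prostate). No agent other than hypoxia, no genotype change and no normoxic cells entered the comparisons, and each line stands alone for its tissue. Between 1042 and 3790 peaks were listed per library, with 3061 and 2910 in T47D replicates 1 and 2. Nothing in the sources used here says that replicates came from separate cultures, so agreement between them may be technical.

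HIF-1β (ARNT) is the partner that HIF-1α and HIF-2α need in order to bind DNA, and the dimers recognise a short core, the hypoxia response element (HRE), here searched as ACGTG or GCGTG on both strands. The same protein also pairs with the aryl hydrocarbon receptor (AHR) and other factors of its family. In many cell types HIF binds mostly at DNA that is already open, and in luminal breast cancer cells such as T47D open distal DNA is often held by FOXA1, GATA3, grainyhead-like factors and the oestrogen receptor, ESR1.

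Sequences from the regions with the strongest peaks show the core itself. Among the 12 regions with the highest lower score of the T47D replicates, 9 held an HRE core in their central 200 bp, and 8 of these windows are shown, all but that of the ZNF395 region. The HRE core closest to the region's centre is printed with 30 bases on each side (plus strand of GRCh37, 5′ to 3′, named by the gene with the nearest protein-coding TSS, HRE cores on either strand in capitals).
BMP4, chr14:54405329-54405393: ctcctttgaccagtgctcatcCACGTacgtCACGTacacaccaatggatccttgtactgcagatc
STMND1, chr6:16986305-16986369: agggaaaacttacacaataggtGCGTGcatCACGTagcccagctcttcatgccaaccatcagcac
SHANK2, chr11:70453306-70453370: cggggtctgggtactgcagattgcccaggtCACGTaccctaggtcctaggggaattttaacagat
ZFP36L1, chr14:69135800-69135864: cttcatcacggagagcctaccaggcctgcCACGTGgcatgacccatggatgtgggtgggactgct
PARD3, chr10:35220410-35220474: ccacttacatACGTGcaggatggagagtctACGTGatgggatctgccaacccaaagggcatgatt
RAPGEF1, chr9:134721098-134721162: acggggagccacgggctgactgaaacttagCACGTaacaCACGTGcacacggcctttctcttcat
PTPRN2, chr7:157293819-157293883: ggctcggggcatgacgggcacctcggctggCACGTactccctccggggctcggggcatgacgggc
MED13L, chr12:116828243-116828307: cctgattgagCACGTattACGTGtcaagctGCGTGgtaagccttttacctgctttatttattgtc
In this orientation CACGT and CACGC are the core read on the other strand. Several of these windows held more than 1 core, as at BMP4, STMND1, PARD3, RAPGEF1 and MED13L. The core of the ZFP36L1 window and 1 core of the RAPGEF1 window were part of a CACGTG palindrome, the E-box that many related factors also recognise.

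Another element was more frequent in the distal T47D-only regions than in the comparison sets, though held by only 5.17% of them. Examples of this element are printed for that reason. It is the oestrogen receptor element, a palindrome of GGTCA and its reverse complement around 3 free bases (GGTCANNNTGACC, with at most 1 mismatch allowed). For the 5 highest-scoring regions with this element in the central 200 bp, it is shown in capitals on the plus strand with 25 bases on each side.
MED13L, chr12:116828360-116828422: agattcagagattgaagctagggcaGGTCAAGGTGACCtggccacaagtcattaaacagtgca
SLC40A1, chr2:190406376-190406438: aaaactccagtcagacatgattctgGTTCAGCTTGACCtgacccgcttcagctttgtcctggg
GREB1, chr2:11638830-11638892: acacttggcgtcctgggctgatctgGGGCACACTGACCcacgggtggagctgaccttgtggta
BOD1, chr5:173018142-173018204: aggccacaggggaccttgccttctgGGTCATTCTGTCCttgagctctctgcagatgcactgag
ADCY9, chr16:4202477-4202539: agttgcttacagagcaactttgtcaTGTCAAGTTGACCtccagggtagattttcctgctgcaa
The GREB1 window lies in an intron of that gene, which encodes an oestrogen-regulated cofactor of ESR1. MED13L, a subunit of Mediator, is the only gene named in both sets of windows, since the region 111848 bp from its TSS held 3 HRE cores and 1 oestrogen receptor element in its central 200 bp. The MED13L region scored 599 in replicate 1 and 669 in replicate 2 of T47D, and it also had a peak in PC3 replicate 2.

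Peak scores of the distal T47D-only regions were mostly low and tracked each other between replicates. The deposited score has no stated definition and starts at about 50 in every list, and since peaks in T47D chose the regions, scores are given as a description with no test. In replicate 1 the score had a median of 101, a lower quartile of 69.1, an upper quartile of 158 and a range of 50 to 3078. In replicate 2 the median was 105, the quartiles 75 and 174, and the range 50.1 to 3100. The 227 distal regions that T47D shared with another line had medians of 131 and 145. The lower of a region's 2 scores was under 100 for 350 of the 580 regions (60.3%) and 500 or more for 19. Across the 580 regions Spearman's rho between the replicates was 0.677, and across the 227 shared ones 0.834. These rho values run over regions of the same 2 libraries, both truncated at the score limit, and are a description.

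**Figure D1:**
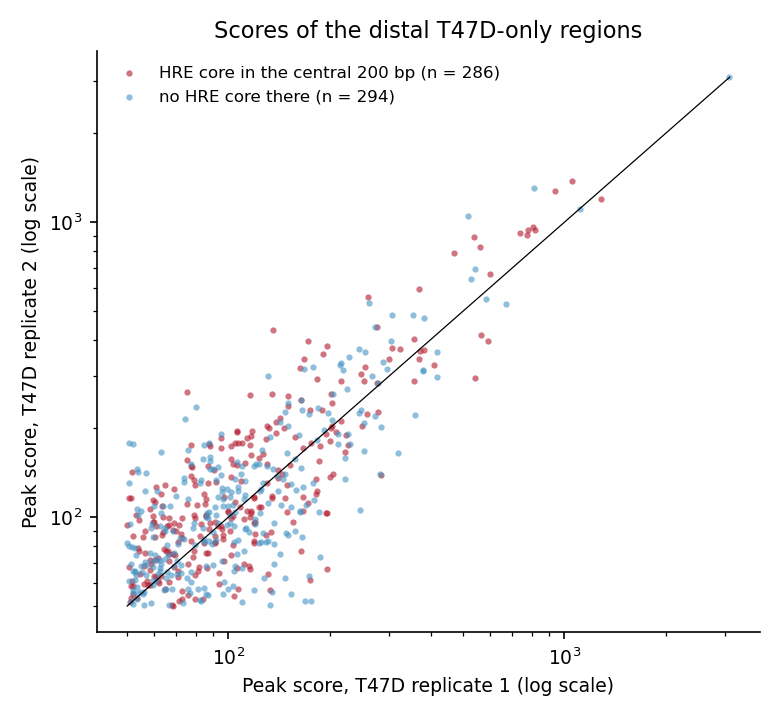
Peak score of each of the 580 distal T47D-only regions in T47D replicate 1 (x axis) and replicate 2 (y axis), both on log scales, coloured by whether the central 200 bp held an HRE core; the line marks equal scores. The 286 regions with and the 294 without a core are mixed over the whole range, and the highest point, near KRT19, has none.

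The strongest region lay beside a keratin gene. It spanned chr17:39690884-39696237, 6324 bp from the nearest TSS of KRT19, which encodes a keratin of luminal epithelium, and scored 3078 in replicate 1 and 3100 in replicate 2. Only 0.098% of the replicate 1 peaks and 0.0344% of the replicate 2 peaks scored higher, with equal scores not counted. The highest score of a shared distal region was 3100 in replicate 1 and in replicate 2. A highest score of 3100 was also listed in the A549 and HCT-116 libraries. The KRT19 region was 5354 bp wide, had no HRE core in its central 200 bp and 7 over its length, and overlapped a peak of PC3 replicate 2. Core counts over a region's length depend on its width and were not set against a background. The centre of such a wide region need not be its point of strongest binding, and the lists give no summit.

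Next in strength was a region 12572 bp from BMP4, which encodes a secreted signalling protein, with scores of 1281 and 1195. The region 8470 bp from the TSS of XAB2, a splicing and repair factor, scored 1110 in both replicates, lay over an exon of that gene and had 11 HRE cores over its length but none in its centre. In an intron of ZNF395, a zinc finger gene on the list of HIF targets, the region chr8:28222787-28224122 scored 1055 and 1375. The region nearest STMND1, 115203 bp from its TSS, scored 935 and 1278 and held 3 cores in its centre. All 4 were without a peak in any library of the other lines.

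The remaining 7 of the 12 lay between 23029 and 122809 bp from the nearest protein-coding TSS. An intron of SHANK2, which encodes a synaptic scaffold, held a region with scores of 819 and 944. The region nearest FOS, a subunit of AP-1, scored 811 and 1308, and it held 4 cores over its length and none in its centre. In RAD51B, whose product acts in homologous recombination, an intronic region nearest to the TSS of ZFP36L1 scored 804 and 966. The regions nearest PARD3, a polarity gene, RAPGEF1, a guanine nucleotide exchange factor gene, and PTPRN2, a receptor-type phosphatase gene, scored 778 and 937, 772 and 907, and 735 and 919. In this group replicate 2 scored higher at each region, and across all 580 it did so at 343.

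HIF-1β peaks in 1 library of another line were seen at a minority of the regions. Of the 580, 500 (86.2%) overlapped no peak of the 6 other libraries, 63 overlapped peaks of 1 of them, 13 of 2 and 4 of 3. The share with any such peak was 13.8% (95% exact binomial interval, which covers counting error only, 11.1 to 16.9%). By the rule no region could hold overlapping peaks of both replicates of another line, so this share counts peaks that their own replicate did not repeat. PC3 replicate 2 and HCT-116 replicate 2, the longest lists of their lines with 2891 and 3790 peaks, each had a peak at 38 regions (6.55%). A549 replicate 2 had one at 19, A549 replicate 3 at 3, PC3 replicate 1 at 2 and HCT-116 replicate 3 at 1. Median scores in T47D were alike for the 80 regions with such a peak (102 and 105) and for the 500 without (101 and 106), and 48.8% and 49.4% of them held a central HRE core. An oestrogen receptor element was in the centre of 1 of the 80 (1.25%) and of 29 of the 500 (5.8%), which was not tested. The number of peaks differed between replicates of a line, and the lists hold no reads, so a missing peak in another line is not a measured absence of binding.

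The HRE core was less frequent in the distal T47D-only regions than in comparable regions. It was present in the central 200 bp of 286 of the 580 (49.3%, interval 45.2 to 53.5%), against 607 of the 904 distal regions with a site of a single other line (odds ratio 0.476, 95% interval 0.385 to 0.59 on the log scale, Fisher's exact test, two-sided, adjusted p = 1.7e-10) and 162 of the 227 distal regions that T47D shared with another line (odds ratio 0.39, interval 0.282 to 0.545, adjusted p = 1.3e-07). Among all 3837 regions, promoters included, 65.7% held the core. Against A549-only, HCT-116-only and PC3-only distal regions taken one by one, the odds ratios were 0.523, 0.389 and 0.511, with adjusted p-values of 1.4e-05, 9.1e-09 and 1.7e-04. These values moved when a library of another line was left out, so that every peak of its remaining library counted as a site. Without PC3 replicate 1 the odds ratio against the regions of 1 other line was 0.767 and without A549 replicate 3 it was 0.699 (adjusted p = 0.0219 and 0.00287, exact test). The comparison with PC3-only regions did not pass the exact test without PC3 replicate 1 (odds ratio 0.939, adjusted p = 0.702), nor that with A549-only regions without A549 replicate 3 (0.901, adjusted p = 0.498). The ACGTG form alone, which is part of the same search and so no separate evidence, was in 34.1% of the T47D-only regions. It was in 49.8% of those of 1 other line, 49.8% of the shared ones and 43.6% of all regions. Its call against HCT-116-only regions was kept in 13 of 17 alternatives, with odds ratios up to 0.881. P-values here were adjusted by the Benjamini-Hochberg method over 18 motifs in 5 comparisons, treat regions as independent, and compare these sets of regions rather than lines, since 1 line against 3 cannot give an exact p below 0.25.

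A core was nevertheless concentrated at the centre of the T47D-only regions. In 100 bp steps, 29.7% and 29.3% of them held a core just left and right of the centre, against 11.9% in the step that began 1000 bp upstream and 10.7% in the step that ended 1000 bp downstream. The 200 bp windows 5 kb away on each side held one in 19.7% of 1160 cases. Over the whole region length, 67 regions (11.6%) had no HRE core at all and 157 (27.1%) had 5 or more. These counts over the length were not compared with the share in the outer steps.

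Shares of the core within ranges of score and of GC content are given as values with no test. Score ranges were compared with the shared regions, and GC ranges with the regions of 1 other line and with the shared regions. Regions whose lower T47D score was 200 or more held a central core in 51.3% of 76 cases, against 72.1% of 68 shared regions in the same score range. Where the lower score was from 50 to 75, the shares were 45.4% of 227 and 73.4% of 64. The median GC content of the central 200 bp was 51.5% in the T47D-only regions, 50.5% in the distal regions of 1 other line and 57% in the shared ones. Within windows of under 45% GC, 36.4% of the T47D-only regions and 55.7% of the regions of 1 other line held a core, and at 60% GC or more 50.4% and 68%. In each of the 5 GC ranges the share was lower in the T47D-only regions than in the regions of 1 other line. Against the shared regions the shares were 36.4% and 50% under 45% GC, and 50% and 70% from 45 to 50% GC. They were 56.4% and 62.8% from 50 to 55% GC, 55.3% and 65.6% from 55 to 60% GC, and 50.4% and 83.3% at 60% GC or more. Of the 227 shared regions, 96 fell in the last range.

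Oestrogen receptor elements were several times more frequent in the distal T47D-only regions than elsewhere. The element was present in the central 200 bp of 30 of the 580 (5.17%, interval 3.52 to 7.3%), of 6 of the 904 distal regions of 1 other line (odds ratio 8.16, interval 3.26 to 18, adjusted p = 5.3e-07, Fisher's exact test) and of 2 of the 227 shared distal regions (odds ratio 6.14, interval 1.36 to 18.3, adjusted p = 0.0129). Of all 3837 regions 1.3% held it, and of the 591 T47D-only promoter regions 3 (0.508%). A549-only, HCT-116-only and PC3-only distal regions had 2 each, and each of these comparisons passed Fisher's exact test (odds ratios 10.5, 7.58 and 6.44, adjusted p = 1.6e-04, 0.00322 and 0.00812). Only 3 of the 1160 flanking windows of the T47D-only regions 5 kb away held the element (0.259%), against 14 of 1808 for the regions of 1 other line (0.774%). By position, it was found in 2.59% and 3.1% of the T47D-only regions just left and right of the centre. With 2 shared regions holding the element, the comparison with these is imprecise, and it did not pass the exact test in the higher-scoring 50% of each list (odds ratio 2.66, adjusted p = 0.436) or in the central 100 bp (odds ratio 4.77, adjusted p = 0.279). Without T47D replicate 1, the comparison with PC3-only regions did not pass the exact test (odds ratio 4.34, adjusted p = 0.0741). Among alternatives with a finite odds ratio, the PC3 call was kept in 13 of 16 and the HCT-116 call in 15 of 16. Odds ratios went down to 3.83 and 5.04, and adjusted p-values of the exact test up to 0.279 and 0.23. Each single-line comparison rests on 2 regions of that line.

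The 30 regions with the element were spread over all scores, with 12 among the 193 regions of the highest lower scores (109 to 3078), 7 among the 193 next (68.5 to 108) and 11 among the 194 lowest (50 to 68.4). Of these 30, 13 also held a central HRE core and 17 did not, next to 273 and 277 of the regions without the element. The region nearest SLC40A1, which encodes the iron exporter ferroportin, scored 542 and 694 and held the element but no central HRE core. The GREB1 region scored 419 and 299, also with no HRE core in the centre. Regions nearest BOD1, a chromosome segregation gene, and ADCY9, an adenylyl cyclase gene, scored 356 and 290, and 278 and 285. The repeat GNACA with the same spacing was searched without mismatch for progesterone, androgen and glucocorticoid receptors. It was in 4 of the 580 regions and passed the test in no comparison of the main setting. Against the regions of 1 other line (2 of 904) the odds ratio was 3.13, with a wide interval of 0.598 to 13.3. This comparison did pass without T47D replicate 1, and in the 200 bp around the middle of the bases shared by the replicate peaks.

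AP-1 motifs were scarce in the T47D-only regions and common in those of every other line. TGANTCA, the element of FOS and JUN dimers, was in the central 200 bp of 39 of the 580 T47D-only regions (6.72%, interval 4.82 to 9.08%) and of 275 of the 904 distal regions of 1 other line (odds ratio 0.165, interval 0.117 to 0.237, adjusted p = 5.9e-29, Fisher's exact test). It was frequent in each of the other lines' own distal regions, in 117 of 386 in A549, 90 of 280 in HCT-116 and 68 of 238 in PC3, with odds ratios between 0.152 and 0.18. Of all regions 13.3% held it. In the T47D-only regions the motif had no concentration at the centre, with 3.1% and 3.97% in the central 100 bp steps and 7.07% in the 200 bp flanking windows, whereas the regions of 1 other line had 15.8% and 17.6% in the central steps. The shared distal regions held it in 10.6%, and the difference from these did not pass the exact test (odds ratio 0.61, interval 0.357 to 1.03, adjusted p = 0.159), though it did without T47D replicate 2 (odds ratio 0.506, adjusted p = 0.0176).

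Forkhead and grainyhead motifs were more frequent in the T47D-only regions, though not against every line. TGTTTAC or TGTTTGC, bound by FOXA1 and other forkhead factors, was in 92 regions (15.9%, interval 13 to 19.1%), against 96 of the 904 (odds ratio 1.59, adjusted p = 0.0129, Fisher's exact test) and 16 of the 227 (odds ratio 2.49, adjusted p = 0.00322), and in 7.74% of all regions. The difference lay against HCT-116-only regions (odds ratio 3.11, adjusted p = 1.0e-04, Fisher's exact test). It did not pass the exact test against A549-only (odds ratio 1.13, interval 0.788 to 1.62) or PC3-only regions (odds ratio 1.61, interval 0.994 to 2.53). Forkhead shares were 22.5% of T47D-only regions under 45% GC and 7.56% at 60% GC or more. In regions of 1 other line they were 15.8% and 3.55%. The part of GC content in the forkhead comparisons was not tested. AACNNGTT, bound by grainyhead-like factors, was in 34 regions (5.86%), against 23 of the 904 (odds ratio 2.39, adjusted p = 0.00766, Fisher's exact test), 3 of the 227 (odds ratio 4.65, adjusted p = 0.0134) and 2.37% of all regions. It did not pass the test against PC3-only regions (odds ratio 1.08, interval 0.552 to 2.02). Without T47D replicate 2, the forkhead comparison with the 904 regions no longer passed the exact test (odds ratio 1.32, adjusted p = 0.114).

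In all, 6 of the 18 motifs (33.3%) passed the test against the distal regions of 1 other line, 3 with a higher share and 3 with a lower one. Among the lower ones, ACGTG is part of the HRE core search. Against the shared distal regions 8 of 18 (44.4%) passed. Besides the motifs above, those that passed the exact test were the E-box (5.34% of the T47D-only regions, 10.6% of the shared, 7.32% of all, odds ratio 0.478, adjusted p = 0.0332), GGGCGG of SP and KLF factors (13.1%, 23.8% and 31.9%, odds ratio 0.483, adjusted p = 0.002) and CNAGGNGGC, a core of CTCF sites (4.48%, 9.25% and 7.61%, odds ratio 0.46, adjusted p = 0.0332). Under 16 alternative settings the CTCF call was kept in 6 and the E-box call in 10. The CTCF call was lost without either A549 replicate, PC3 replicate 1 or either T47D replicate (odds ratios 0.495 to 0.699, adjusted p between 0.061 and 0.32, exact test), and the E-box call without T47D replicate 1 (odds ratio 0.631, adjusted p = 0.157, exact test). The SP and KLF motif differed in direction between lines. It was more frequent than in A549-only (5.7%, odds ratio 2.49, adjusted p = 1.0e-03, Fisher's exact test) and PC3-only regions (6.72%, odds ratio 2.09, adjusted p = 0.0293) and less frequent than in HCT-116-only regions (22.5%, odds ratio 0.519, adjusted p = 0.00322). The A549 comparison did not pass the exact test without A549 replicate 3 (odds ratio 1.49, adjusted p = 0.073), and the PC3 comparison did not without A549 replicate 3 or HCT-116 replicate 3 (odds ratios 1.97 and 1.57, adjusted p = 0.061 and 0.283). Median GC content of the central 200 bp was 49% in A549-only, 48.5% in PC3-only, 55.5% in HCT-116-only and 51.5% in T47D-only regions. The part of GC content in the shares of this GC-rich motif was not tested. C/EBP motifs passed as less frequent than in A549-only regions (odds ratio 0.605) and TEAD motifs than in PC3-only regions (odds ratio 0.474, both adjusted p = 0.0408, Fisher's exact test), but in only 6 and 7 of 17 alternatives. The AHR element TNGCGTG, which contains the GCGTG core, was in 4.66% of the T47D-only regions and 5.99% of all, and its share passed the exact test against HCT-116-only regions alone (odds ratio 0.477, adjusted p = 0.0293). It did not pass the exact test without HCT-116 replicate 3 (0.616, adjusted p = 0.0978) or T47D replicate 2 (0.543, adjusted p = 0.0543). GATA motifs (AGATAA or TGATAA) were in 17.2% and passed in none of the 5 comparisons, with an odds ratio of 1.01 (interval 0.771 to 1.34) against the distal regions of 1 other line. Against the shared regions (11%) the odds ratio was 1.68 (interval 1.04 to 2.64, adjusted p = 0.0723, Fisher's exact test), and this comparison passed in 9 of 16 alternatives, among them without A549 replicate 2, either HCT-116 replicate or T47D replicate 1 (odds ratios 1.77 to 1.92).

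**Figure D2:**
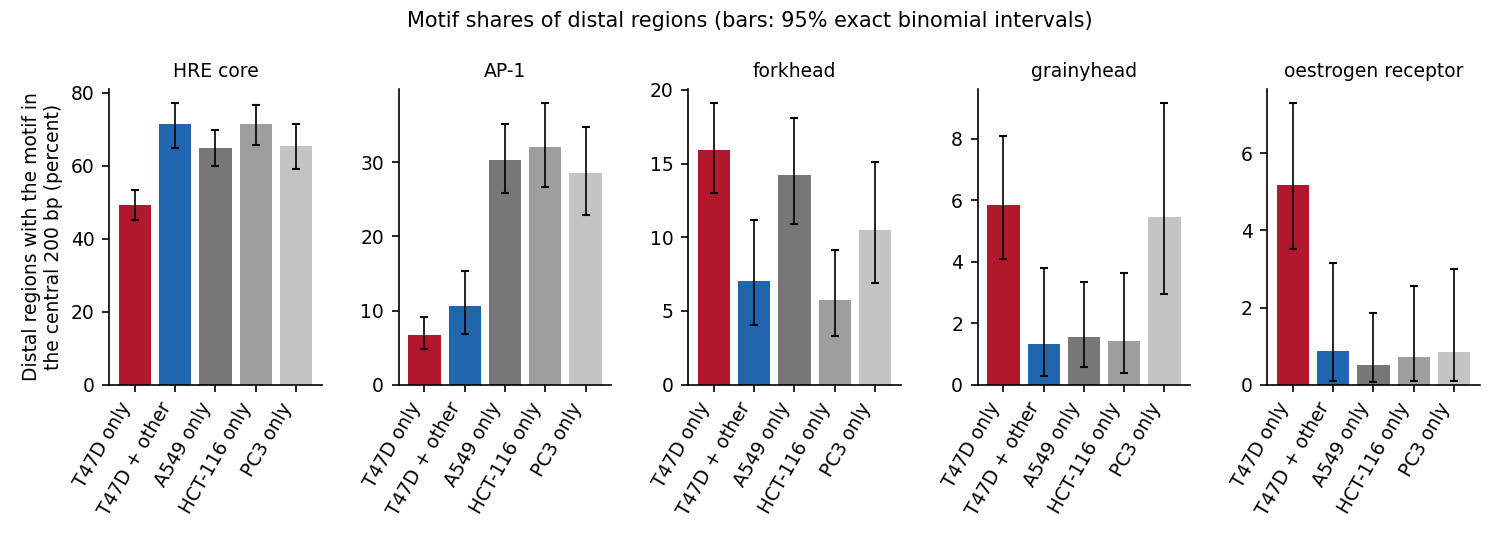
Share of distal regions, in percent, with each of 5 motifs in the central 200 bp, for T47D-only regions (red, n = 580), regions of T47D and another line (blue, n = 227) and regions of A549 (n = 386), HCT-116 (n = 280) or PC3 (n = 238) only (greys); error bars are 95% exact binomial intervals and each panel has its own scale. T47D-only regions have the lowest HRE core and AP-1 shares, 49.3% and 6.72%, and the highest oestrogen receptor share, 5.17%.

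**Figure D3:**
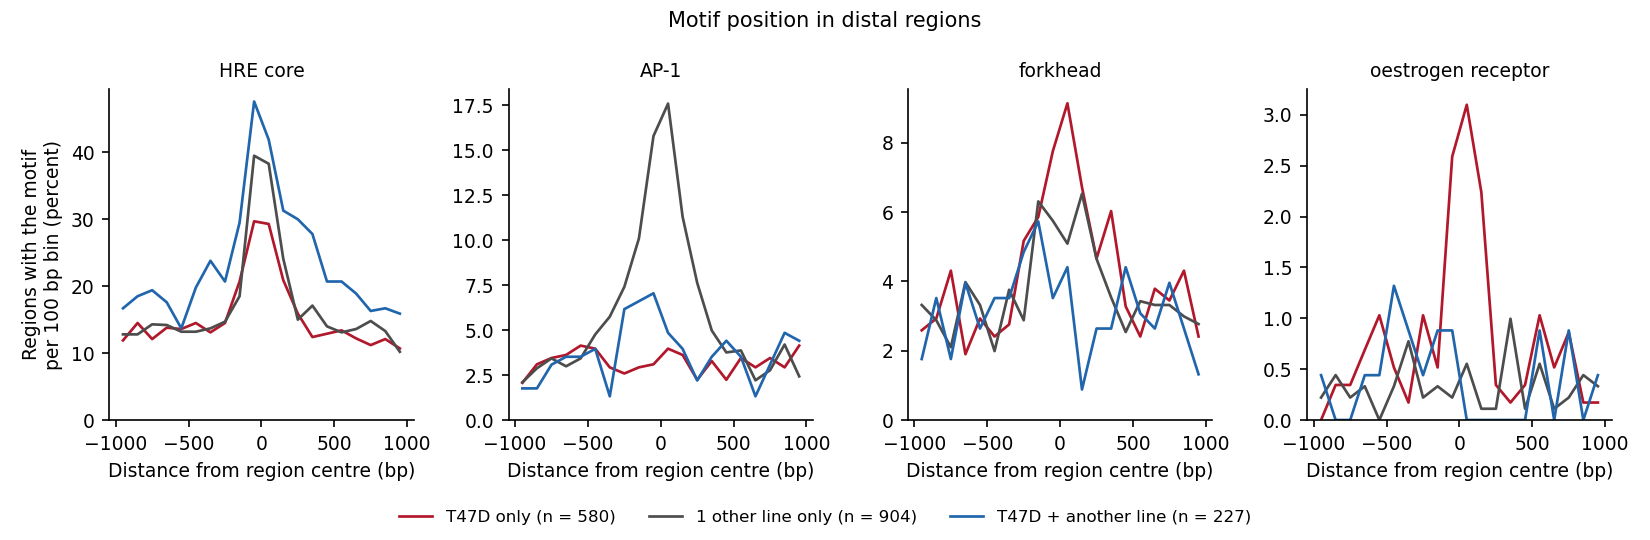
Share of distal regions, in percent, with a motif in each 100 bp step from the region's centre, for T47D-only regions (red), regions of 1 other line only (grey) and regions of T47D and another line (blue). The oestrogen receptor element reaches 3.1% at the centre of T47D-only regions, and AP-1 reaches 17.6% at the centre of regions of 1 other line while the red line stays flat.

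Peaks that played no part in choosing the regions were compared by their point shares, with no test. In every library, distal peaks found in 1 replicate alone and overlapping no peak of another line were searched in the same way. AP-1 was in 5.59% of 322 such peaks of T47D replicate 1 and in 5.42% of 295 of replicate 2. In the 6 other libraries its share was between 13.2% and 32.7%. The lowest, 5 of 38 peaks of PC3 replicate 1, has an interval of 4.41 to 28.1%, which covers the T47D shares. The oestrogen receptor element was in 2.48% and 3.05% of the T47D peaks, and in between 0 and 1.41% of those of the other libraries. Of these, the lists of A549 replicate 3, HCT-116 replicate 3 and PC3 replicate 1 had 98, 40 and 38 such peaks and none with the element, which allows shares of up to 3.06%, 7.5% and 7.89% (3 counts of the total) or, by the upper bound of the 95% exact interval, 3.69%, 8.81% and 9.25%. These limits lie above the shares of the T47D peaks, so a difference from these 3 libraries was not detectable at this depth. HRE core shares of these unrepeated peaks overlapped between the lines, at 40.7% and 44.4% in T47D and from 34.2% to 57.5% elsewhere. Forkhead shares also overlapped, at 11.8% and 13.9% in T47D and from 2.5% to 18.4% elsewhere, and grainyhead shares were 4.04% and 4.41% in T47D and between 0 and 4.08% elsewhere.

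**Figure D4:**
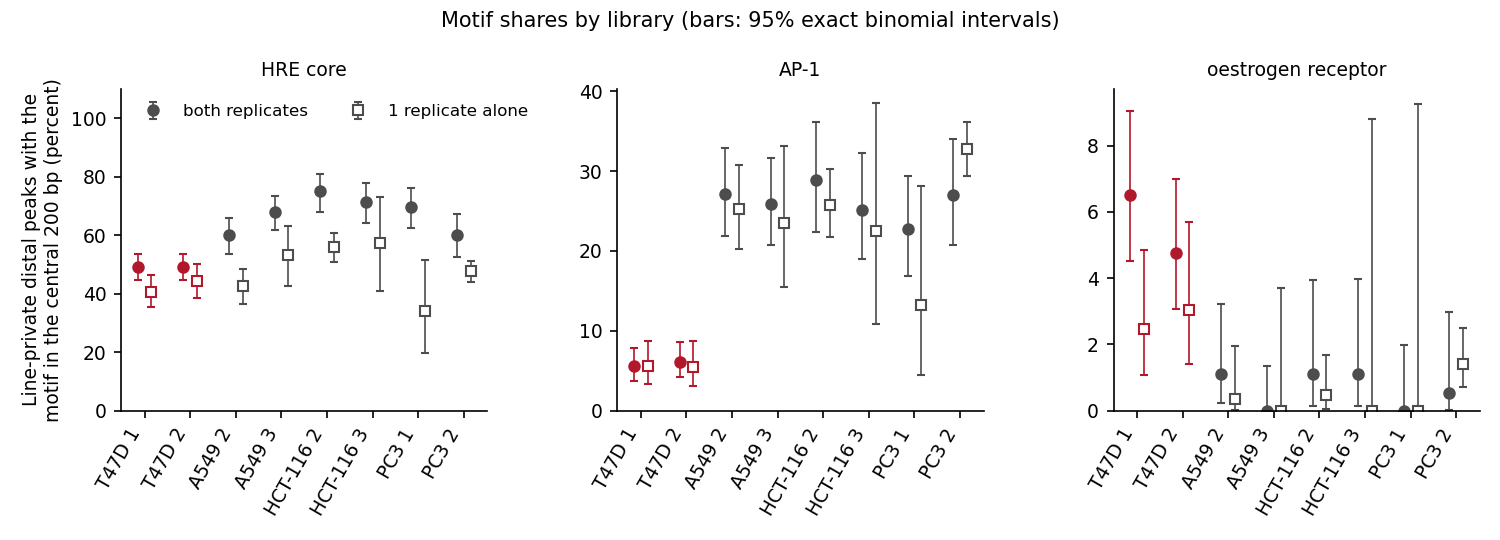
Share of line-private distal peaks, in percent, with the HRE core, AP-1 or oestrogen receptor motif in each library; filled circles are peaks also found in the line's other replicate, open squares are peaks of 1 replicate alone, and bars are 95% exact binomial intervals. The point values of both T47D libraries (red) lie below the other 6 for AP-1, at 5.42% to 6.14%, and above them for the oestrogen receptor element, while several intervals of the open squares overlap.

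By annotation (GENCODE release 44 on GRCh37), the T47D-only distal regions were mostly intergenic. The midpoint of 365 regions (62.9%) lay outside protein-coding genes, 198 (34.1%) in an intron and 17 (2.93%) in an exon. A midpoint inside a protein-coding gene was less frequent than for the distal regions of 1 other line (37.1% against 44.2%, odds ratio 0.742, adjusted p = 0.0184, Fisher's exact test), the one of 4 features (25%) that passed in this comparison. Against the shared distal regions 2 of 4 (50%) passed. Fewer T47D-only regions lay within 2 kb of a TSS of another gene type such as a long non-coding RNA (16.4% against 30.8%, odds ratio 0.439, adjusted p = 4.2e-05, Fisher's exact test), and more lay over 50 kb from a protein-coding TSS (43.1% against 24.7%, odds ratio 2.31, adjusted p = 9.1e-06). The median distance to a protein-coding TSS was 40874 bp, against 35643 bp for the regions of 1 other line and 23076 bp for the shared regions, and 163 regions (28.1%) lay over 100 kb away.

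At the limit of 2 kb that defined distal regions, those just outside lay 2151 bp from MXRA8, 2163 bp from ZNF707, 2207 bp from TNS2 and 2243 bp from NWD1. The T47D-only regions just inside lay 1982 bp from AHNAK, 1825 bp from SRL, 1818 bp from PARD6B and 1778 bp from SHF. Scores on either side overlapped, from 60.4 and 85.7 at MXRA8 to 356 and 402 at NWD1 on the far side, and from 56.8 and 52.6 at AHNAK to 415 and 303 at PARD6B on the near side.

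Regions were found on chromosomes 1 to 22 and X. Of 23 chromosomes 1 (4.35%) differed in its share from the distal regions of 1 other line, chromosome 2 with 24 regions (4.14% against 8.52%, odds ratio 0.464, adjusted p = 0.0227, Fisher's exact test). The call for chromosome 2 did not pass the exact test without A549 replicate 3 (adjusted p = 0.0607), in the higher-scoring 50% of each list (adjusted p = 0.314), over 5 kb from a TSS (adjusted p = 0.075) or when a peak of either replicate counted as bound in another line (adjusted p = 0.0701). Copy number of the lines was not measured and its part was not tested.

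Keratins, receptors and transcription factors of luminal breast epithelium were among the nearest genes. Of the 580 regions, 28 (4.83%) were within 100 kb of a TSS of 1 of 52 listed luminal genes, against 9 of the 904 distal regions of 1 other line (0.996%), 8 of the 227 shared regions (3.52%), 14 of the 591 T47D-only promoter regions (2.37%) and 73 of all 3837 regions (1.9%). The list was chosen with results of these data known, several of the regions lie near the same gene, and no test was made. The genes were AZGP1, EHF, ESR1, FOXA1, GREB1, GRHL2, IGF1R, KRT18, KRT19, KRT7, KRT8, PIP, PRLR, RARA, TRPS1 and XBP1. Not all were particular to T47D-only regions. GREB1, IGF1R, KRT7, KRT8 and KRT18 also had a distal region of 1 other line within 100 kb. IGF1R, KRT8, KRT18 and KRT19 also had a shared distal region within that distance. For 26 of the 28 regions a listed gene also had the nearest protein-coding TSS.

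**Figure D5:**
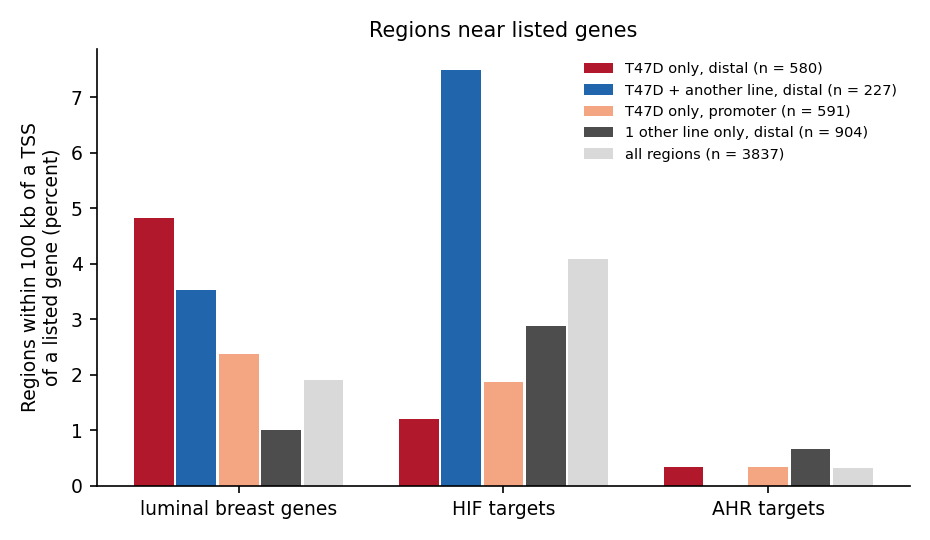
Share of regions, in percent, within 100 kb of a TSS of a gene on each of 3 lists (luminal breast genes, HIF targets, AHR targets), for T47D-only distal regions (red) and 4 comparison sets named in the key. T47D-only distal regions have the highest share for luminal genes, 4.83%, and a low share for HIF targets, 1.21%, where the shared distal regions reach 7.49%.

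Among the luminal genes, XBP1, a transcription factor of the unfolded protein response, had 3 regions between 12645 and 22098 bp from its TSS, all within chr22:29209230-29219705. The strongest scored 358 and 222, the next 121 and 151, and the weakest 95.1 and 93.2. The weakest held 1 central HRE core and the others none. FOXA1, the forkhead factor that opens chromatin for ESR1, had 3 regions between 9317 and 50164 bp away, of which the nearest, chr14:38052275-38055137, scored 112 and 133. All 3 had a core somewhere along their length and 1 had it in the centre.

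TRPS1, a GATA-type repressor, was nearest to 5 regions, 4 of them within 100 kb, with lower scores between 57.3 and 212, and 4 of the 5 had a central core. KRT8, the keratin partner of KRT18 in simple epithelium, had 3 regions between 6779 and 21519 bp away, with lower scores between 70.9 and 82.3 and no central core in any. An intronic region of RARA, a retinoic acid receptor, lay 2404 bp from its nearest TSS and scored 154 and 108. The region nearest ESR1 was 56183 bp away, at chr6:151954307-151955448, scored 151 and 87.1 and held no HRE core. KRT8 and ESR1 were not among the genes the naming rule selected and were picked after their values were seen.

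Few of these regions lay near the listed HIF targets. Of the 580, 7 (1.21%) were within 100 kb of 1 of 70 listed HIF targets, against 17 of the 227 shared distal regions (7.49%), 26 of the 904 (2.88%) and 157 of all regions (4.09%), again with no test. The share was 1.86% of the 591 T47D-only promoter regions. By line it was 1.68% of PC3-only, 3.21% of HCT-116-only and 3.37% of A549-only distal regions. The 6 targets near the 580 regions were HK1, KDM4B, PFKFB3, STC2, TMEM45A and ZNF395. After ZNF395, the highest lower score was that of a region in an intron of HK1, a hexokinase gene. It scored 119 and 95.2 and held 2 central HRE cores, and its nearest TSS was that of TACR2. Next was an intronic region of KDM4B, a histone demethylase gene, with scores of 94.8 and 192 and no HRE core anywhere in it. The region over an exon of STC2, which encodes a secreted glycoprotein, scored 119 and 82 and held a central core. PFKFB3, a regulator of glycolysis, and TMEM45A, a membrane protein gene, each had a region with 1 strong and 1 weak score, 154 and 54.7, and 51.8 and 142. The count depends on the list, which holds neither EPO nor EDN1. A region 2641 bp from EPO, picked after its values were seen, scored 106 and 196 and held 1 central HRE core. EDN1 was nearest to 7 regions, 3 of them within 100 kb.

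Of 9 listed AHR targets, CYP1A1 and CYP1B1, which encode enzymes that oxidise foreign compounds and oestrogens, had a region within 100 kb, 2 of the 580 in all (0.345%, against 0.313% of all regions). The CYP1B1 region, in an intron at chr2:38322870-38324192, scored 564 and 416 and held 2 HRE cores in its centre and 5 over its length. No central core had the ACGTG form, and the centre held 2 AHR elements (TNGCGTG), which contain the GCGTG core.

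A few genes drew several regions each. The 580 regions had 472 nearest genes, of which 400 were nearest to 1 region, 25 to 3 or more and 7 to 4 or more. EDN1, which encodes the vasoconstrictor endothelin, was nearest to 7, between 40753 and 201760 bp from its TSS, 3 of them within chr6:12331347-12344867. The strongest of the 7 scored 526 and 644, and none held a central HRE core although 4 held a core elsewhere. TRPS1 followed with 5. BOD1, KITLG, MYC, S100G and TBL1XR1 had 4 each. KITLG, the ligand of the KIT receptor, had its 4 between 169570 and 182207 bp away within chr12:89144198-89158187, with lower scores from 55 to 86.5. S100G, a calcium-binding protein gene, had 4 on chromosome X, 3 of them in introns of CTPS2, and the strongest scored 562 and 821. Among the distal regions of 1 other line, EDN1, TRPS1, S100G and TBL1XR1 were each nearest to 1, MYC was nearest to 3, and BOD1 and KITLG to none.

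Many of the regions had neighbours. Another T47D site lay within 25 kb of 147 of the 580 (25.3%). The same count with a line's own sites gave 17.6% for A549-only, 15.4% for HCT-116-only and 10.5% for PC3-only distal regions, and T47D also had more sites in all, so these shares were not tested against each other. Joined at 25 kb or less, 112 regions (19.3%) fell into 40 pairs, 8 groups of 3 and 2 groups of 4, the groups of 4 being those nearest KITLG and S100G.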

How the data were processed

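HIF-1β ChIP-seq peaks of 8 libraries, 2 each of T47D, A549, HCT-116 and PC3 cells, were used. The submitters' processing notes name Trim Galore 0.3.3, BWA 0.7.5a-r405, SAMtools 0.1.19, Picard 1.106, bedtools 2.17.0 and MACS, with the builds GRCh37 and hg19, and the study's methods add T-PIC as another peak caller. The authors called peaks in each library and deposited, for each peak, an interval and a score whose definition is not given in the sources used here. The deposited lists hold no reads, so depth is unknown.

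Sites, merged regions and distances were computed as given in the opening paragraph, with TSSs of protein-coding transcripts of protein-coding genes in GENCODE release 44 lifted to GRCh37. Of the 3840 merged regions 3 lay off the main chromosomes and were left out, 2 of them with a site of T47D alone. The central 200 bp of each region were searched on both strands for 18 motifs. Motif, annotation and chromosome shares were compared by Fisher's exact test, two-sided, with Benjamini-Hochberg adjustment within each of these 3 families and a limit of 0.05. Odds ratio intervals used 0.5 added to each count. Gene lists were counted within 100 kb and not tested. The regions, lists and motifs were chosen with earlier results of these data known. Regions were named by rule: the 12 with the highest lower score, up to 8 per list nearest to a listed gene within 100 kb, the 5 genes nearest to most regions (with ties), and the 4 regions on each side of the 2 kb limit. Named besides these were the 5 highest-scoring regions with an oestrogen receptor element and regions of KRT8, ESR1, HK1 and EPO. Alternatives changed the overlap, the score limit, the 2 kb limit, the meaning of bound in another line, the window and the libraries. Motif search, overlaps and tests were tested on simulated data. Python 3.11.15, SciPy 1.17.1, NumPy 2.4.6, pysam 0.24.0, samtools 1.23.1 and Matplotlib 3.10.9 were used.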

Additional observations from a re-analysis of the deposited data

How the results depend on the processing

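Across 45 results and their alternative settings 732 values were computed, of which 617 kept their size or their side of the threshold. In 6 other cases, of the oestrogen receptor element against the regions of a single line, no region of that line held the motif and no odds ratio could be computed. Those that changed direction were 6 odds ratios of the GATA motif against the regions of 1 other line (1.01), which passed the test under no setting: 0.942, 0.991, 0.976 and 0.93 without A549 replicate 2, A549 replicate 3, PC3 replicate 1 and T47D replicate 2, 0.983 when a site within 1 kb counted and 0.86 in the central 400 bp, against at most 1.2 with 1 library left out (without HCT-116 replicate 3). The number of distal T47D-only regions (580) was 328 in the higher-scoring 50% of each list and between 542 and 947 with 1 library left out, the highest values being 915 and 947 without T47D replicate 1 and 2, when every peak of the remaining replicate counts. The share with a peak in a library of another line (13.8%) was between 7.38% and 12.6% with 1 library left out, namely 7.38% to 12% without a library of another line, when every peak of that line's remaining library counts as a site, and 12.6% without either T47D replicate. The share with a central HRE core (49.3%) was 54.3% in the higher-scoring 50%, 32.8% in the central 100 bp and 68.8% in the central 400 bp, and between 46.9% and 49.6% with 1 library left out. Its odds ratio stayed below 1 with an adjusted p of at most 0.0219 against the distal regions of 1 other line (0.424 to 0.767, the highest without PC3 replicate 1) and at most 0.0143 against the shared regions (0.285 to 0.512). Motifs called against the shared regions (8) numbered 4 in the higher-scoring 50% and 3 in the central 100 bp, and between 7 and 9 with 1 library left out. Those called against the regions of 1 other line (6) numbered between 5 and 8. Oestrogen receptor and AP-1 calls against the regions of 1 other line held under all 17 alternatives, with odds ratios of 5.56 to 24.6 and 0.15 to 0.188. AP-1 also passed against the shared regions in 4 of 16. The forkhead call against the regions of 1 other line did not pass in the central 400 bp (odds ratio 1.28), and the grainyhead call did not in the central 100 bp (2.16). Against the shared regions, the forkhead call did not pass in the higher-scoring 50% (2.16) or the central 100 bp (1.99), and the grainyhead call did not in the higher-scoring 50% (6.5), the central 100 bp (6) or the central 400 bp (1.88). Annotation features called against the regions of 1 other line (1) numbered 1 or 2 with 1 library left out, 2 without HCT-116 replicate 3 or PC3 replicate 1. Chromosomes called (1) numbered 0 in the higher-scoring 50%, over 5 kb from a TSS and when a peak of either replicate of another line counted, and between 0 and 3 with 1 library left out. Where no construction is named, the cause was not tested. No paired analysis was possible because the results come from overlaps and sequences of peak lists, with no model fitted across samples. The lists hold no reads, so a region without a peak in another line may lie just under that library's limit.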
